A study of Mus musculus with 8 samples.

Results

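The expression of 10 genes of iron and heme handling was measured in brown adipose tissue (BAT) of mice with cancer-associated cachexia. The genes were taken by name from the count table, which lists 56953 genes: Tfrc, Trf, Slc11a2 and Steap4 (uptake), Fth1 and Ftl1 (storage), Slc40a1 (export), Hmox1 (heme breakdown), and Aco1 and Ireb2 (regulators). RNA of whole BAT was sequenced from 4 control mice (CTR), which received PBS, and 4 mice with cachexia (CAC), which received 3000000 Lewis lung carcinoma (LLC) cells under the skin of the right flank. Every mouse was WT, of strain C57BL/6J and 8 to 10 weeks old at injection, so older when BAT was taken, and each library came from 1 mouse. The study gives the mice as male or female, and the labels do not give the sex of single mice. Sex could therefore not be entered in a test. The CAC group rests on 1 tumor line, and the study kept only the injected mice that formed a tumor.

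Cells take up iron as transferrin bound to the transferrin receptor, reduce it in the endosome and move it to the cytosol, where it is used, stored in ferritin or exported by ferroportin. Most cytosolic control acts on messenger RNA: the iron regulatory proteins bind a hairpin, the iron-responsive element (IRE), when iron is low, which blocks translation of ferritin and ferroportin messages and stabilises the transferrin receptor message. A transcript level of ferritin or ferroportin therefore says little of the protein made from it. Brown adipocytes are rich in mitochondria, whose respiratory chain needs heme and iron-sulfur clusters.

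The hairpin sequences are shown because they place the genes on the 2 sides of this control. IREs were searched in the GENCODE M21 transcripts of the mouse genome GRCm38 as a C, any 5 bases, CAGTGN with any last base but G, and 5 bases that pair with the first 5, G-T pairs allowed. Only the sense strand of untranslated regions was read, and the capitals mark the 6-base loop. A match was found in 0.112% of the 20597 genes with a 5′ untranslated region and in 0.477% of the 20979 genes with a 3′ untranslated region. Fth1, Ftl1 and Slc40a1 hold 1 match each in the 5′ untranslated region.
Fth1, chr19:9982732-9982761, plus strand: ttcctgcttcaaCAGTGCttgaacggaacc
Ftl1, chr7:45459778-45459807, minus strand: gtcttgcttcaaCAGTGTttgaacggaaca
Slc40a1, chr1:45925464-45925493, minus strand: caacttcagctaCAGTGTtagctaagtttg

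Tfrc holds 4 matches, all in the 3′ untranslated region and all on the plus strand.
Tfrc, chr16:32631219-32631248: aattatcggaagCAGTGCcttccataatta
Tfrc, chr16:32631598-32631627: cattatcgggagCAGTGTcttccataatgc
Tfrc, chr16:32631663-32631692: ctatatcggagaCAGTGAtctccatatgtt
Tfrc, chr16:32631710-32631739: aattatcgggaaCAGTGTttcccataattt
These letters were not found in the untranslated regions of the other 6 genes, which says nothing of other forms of the hairpin. A match is a description of sequence, not a measured binding site.

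The libraries held 2454493 to 4827956 counts in CTR and 1823167 to 3392538 in CAC. Levels are given as CPM, the counts scaled to a common library size with TMM factors, with 1 value per mouse, and can be compared between mice but not between genes, since they are not divided by length. The summed CPM of 7 brown adipocyte markers lay at 15971 to 17653 in CTR and 15526 to 17729 in CAC. Markers of blood and immune cells had higher sums in CAC, with an overlap for erythrocytes only: the sums were 6179 to 19269 and 14637 to 44327 for 7 erythrocyte markers, 209 to 234 and 289 to 411 for 11 macrophage markers, and 6.48 to 6.92 and 164 to 432 for 8 neutrophil markers. At an adjusted p under 0.05, 1 of 6 tested erythrocyte markers (Slc4a1), 2 of 8 macrophage markers (C1qa and C1qb) and 3 of 3 neutrophil markers (S100a8, S100a9 and Retnlg) rose, where 0.739% of all genes tested did. Slc4a1 and the 3 neutrophil markers passed the filter on low counts through the CAC mice, the group where they are high. Counts in CTR were 0, 3, 4 and 0 for Slc4a1, 7, 4, 2 and 9 for S100a9, and 1, 2, 5 and 5 for Retnlg. The other neutrophil markers were under the filter, so 3 of 3 was largely set by it. Of the 7 brown adipocyte markers 1 rose, Ppargc1a, a coactivator of mitochondrial genes (log2 fold change 0.73, edgeR adjusted p = 0.0201), and Plin1, which coats lipid droplets, stood at -0.27 with every CAC mouse below every CTR mouse (adjusted p = 0.192). S100a8 and S100a9, which cells other than neutrophils can also express, made up 92.3% to 95.3% of the neutrophil sum in CAC, and the other 6 markers summed to 1.07 to 2.49 CPM in CTR and 8.51 to 28.7 CPM in CAC. The summed 6 skeletal muscle markers were 631 to 1784 CPM in CTR and 1371 to 2817 CPM in CAC. All 6 had higher means in CAC and 0 passed the adjusted test, with Myh4, a fast myosin, higher in every CAC mouse than in every CTR mouse (log2 fold change 1.30, edgeR adjusted p = 0.210). The sums overlapped for 4 endothelial markers, at 238 to 308 and 199 to 276, for 4 fibroblast markers, at 376 to 497 and 344 to 492, and for 4 Schwann cell markers, at 203 to 299 and 190 to 352. None of the listed markers of any cell type was at 0 in every library. The part of these cells in the results below was not tested, and in bulk tissue fewer cells of a type cannot be told apart from less RNA per cell.

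Between CTR and CAC, 0 of the 9 genes tested passed an adjusted p under 0.05 (edgeR's quasi-likelihood test, Benjamini-Hochberg adjustment over 9876 genes), where 0.932% of all genes tested did. DESeq2 and limma-trend also called 0 of them, against 1.11% and 0.869% of all genes in these tests. At an unadjusted p under 0.05 there were 4 genes, Trf with a higher and Tfrc, Fth1 and Aco1 with a lower mean in CAC, where 12.9% of all genes tested passed. Of the 9 log2 fold changes 5 were above and 4 below 0, with a median of 0.06, and the median over all genes tested was 0.00. The CAC values lay wholly below the CTR values for 3 genes (Tfrc, Fth1 and Ireb2) and wholly above them for 0, where 3.4% and 3.64% of all genes tested showed these patterns. Hmox1 was under the filter on low counts and was not in this test.

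**Figure D1:**
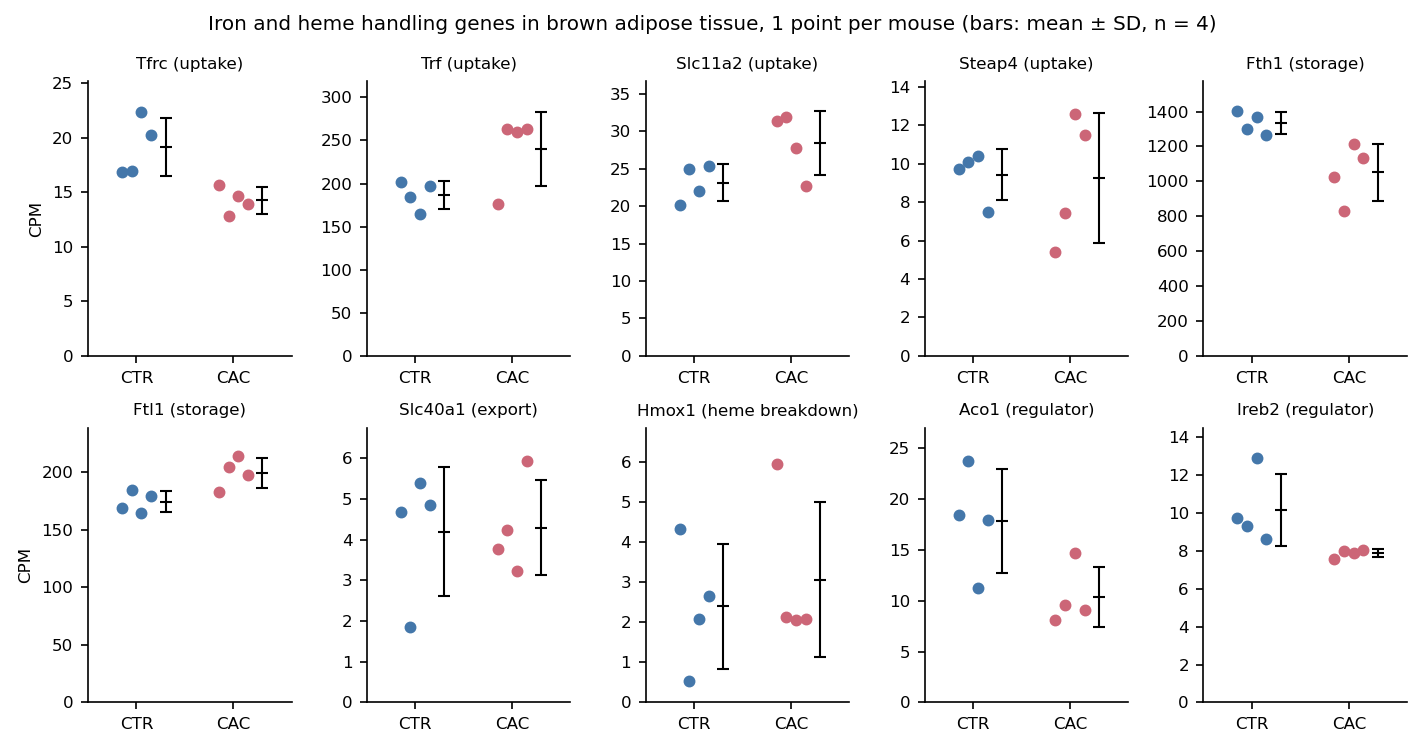
Normalised read counts in CPM (vertical axes, each from 0) of the 10 genes in each of 4 CTR and 4 CAC mice, with bars for mean ± SD. The CAC points lie below every CTR point for Tfrc, Fth1 and Ireb2, and 3 of 4 CAC points lie above every CTR point for Trf, Slc11a2 and Ftl1.

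Among the uptake genes, the receptor and its ligand pointed in opposite directions. Tfrc (ENSMUSG00000022797.17, chr16:32608920-32632794, plus strand) encodes the transferrin receptor, which takes iron-loaded transferrin into the cell. Its CPM was 16.9, 17, 22.4 and 20.3 in the CTR mice and 15.7, 12.8, 14.7 and 13.9 in the CAC mice. The highest CAC mouse was below the lowest CTR mouse. The mean was 19.2 ± 2.67 CPM in CTR and 14.3 ± 1.22 in CAC (SD, n = 4 each). This log2 fold change, -0.42 (SE 0.17), had an edgeR adjusted p of 0.286. Tfrc rested on 24 to 92 counts per library, and counting alone gave an SD of 2.11 to 3.05 CPM in CTR, close to the spread seen there, and of 2.07 to 2.91 CPM in CAC, above it.

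Trf (ENSMUSG00000032554.16, chr9:103204001-103230444, minus strand) encodes transferrin, the iron carrier of plasma, which is made mainly in liver. Its CPM was 202, 184, 165 and 197 in CTR and 176, 263, 260 and 263 in CAC. CAC replicates 2, 3 and 4 were above every CTR mouse, whereas CAC replicate 1 lay inside the CTR range. The means were 187 ± 16.6 and 240 ± 42.8 CPM (SD, n = 4 each), with a log2 fold change of 0.36 (SE 0.12, edgeR adjusted p = 0.169). Without CAC replicate 1 the log2 fold change was 0.49 and the adjusted p was 0.0151, so this single mouse decided the call (1.26% of all genes passed in that fit). CAC replicate 1 also had the highest summed erythrocyte markers of all mice, 44327 CPM. Trf rested on 326 to 895 counts, and it overlaps a second annotated gene, Gm20425, on the same strand. Summed liver markers, the 4 hepatocyte genes of the marker lists, were 0.533 to 2.49 CPM in CTR and 0.541 to 17.3 CPM in CAC, and none of them passed the filter on low counts.

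Slc11a2 (ENSMUSG00000023030.17, chr15:100387898-100425072, minus strand) encodes DMT1, which moves ferrous iron out of the endosome. It read 20.2, 25.0, 22 and 25.4 CPM in CTR and 31.4, 31.9, 27.8 and 22.7 CPM in CAC. Again 3 of 4 CAC mice were above every CTR mouse, here with CAC replicate 4 inside the CTR range. The means of 23.1 ± 2.5 and 28.4 ± 4.25 CPM (SD, n = 4 each) gave a log2 fold change of 0.27 (SE 0.15), which did not pass the test (edgeR adjusted p = 0.481).

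Steap4 (ENSMUSG00000012428.10, chr5:7960457-7982213, plus strand) encodes a metalloreductase that reduces ferric iron and cupric copper and is expressed in adipose tissue. Its CPM was 9.72, 10.1, 10.4 and 7.5 in CTR and 5.41, 7.44, 12.6 and 11.5 in CAC. The CAC mice held both the 2 lowest and the 2 highest values, with an SD of 1.32 CPM in CTR and 3.38 CPM in CAC around means of 9.43 and 9.24 CPM (n = 4 each). The fitted log2 fold change was 0.06 (SE 0.25, edgeR adjusted p = 0.953), although the CAC mean was slightly below the CTR mean. The sign of this fitted value changed when CTR replicate 4, CAC replicate 3 or CAC replicate 4 was left out.

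The means of the 2 ferritin chains lay on opposite sides of the control. Fth1 (ENSMUSG00000024661.8, chr19:9980598-9985098, plus strand) encodes the heavy chain, whose ferroxidase site oxidises iron as it enters the ferritin shell. It read 1401, 1301, 1367 and 1266 CPM in CTR, and 1023, 833, 1215 and 1135 CPM in CAC. Every CAC mouse was below every CTR mouse. The means were 1333 ± 61.3 and 1052 ± 166 CPM (SD, n = 4 each), with a log2 fold change of -0.34 (SE 0.10, edgeR adjusted p = 0.132). With 1566.5 to 5739.5 counts per library, counting alone gave an SD of only 16.7 to 23.8 CPM, below the spread within either group.

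Ftl1 (ENSMUSG00000050708.17, chr7:45457944-45459884, minus strand) encodes the light chain, which helps the iron core form and has no ferroxidase site. It read 169, 184, 164 and 179 CPM in CTR, and 183, 204, 214 and 197 CPM in CAC. In CAC replicates 2, 3 and 4 it was above every CTR mouse, with CAC replicate 1 inside the CTR range. The means were 174 ± 8.86 and 199 ± 12.8 CPM (SD, n = 4 each), with a log2 fold change of 0.19 (SE 0.10, edgeR adjusted p = 0.395).

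The ratio of Fth1 to Ftl1 counts within each library does not depend on library size or scaling. It was 8.26, 7.06, 8.31 and 7.08 in CTR and 5.57, 4.08, 5.69 and 5.77 in CAC. The highest CAC ratio was below the lowest CTR ratio. On the log2 scale the CTR mice averaged 2.94 ± 0.13 and the CAC mice 2.39 ± 0.24 (SD, n = 4 per group), a difference of -0.55 or 0.683 times the CTR ratio. The exact two-sided permutation test over mice gave p = 0.0286, the smallest that 4 against 4 can give, and 0.0857 after Benjamini-Hochberg adjustment over the 3 ratios computed. CAC replicate 2 had the lowest ratio, and without it the difference was -0.43.

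Reads that map to more than 1 place were shared between genes by the authors, which matters for ferritin, since both chains have processed pseudogenes. Fth1 and Ftl1 counts held fractions of reads in 7 of 8 libraries. The 3 Ftl pseudogene rows held 37.5% to 45.9% of the counts of Ftl1 and these rows together, nearly all in Ftl1-ps1, whereas the 3 Fth pseudogene rows held 0.0154% to 0.106% of the Fth1 total. Ftl1-ps1 read 111, 110, 132 and 122 CPM in CTR and 142, 173, 153 and 147 CPM in CAC. Its log2 fold change was 0.37 (SE 0.11, edgeR adjusted p = 0.0999). Which of these reads came from Ftl1 cannot be told from the counts, so the level of Ftl1 itself is uncertain. With the pseudogene rows added to their parent genes, the log2 fold change was 0.26 for Ftl1 (edgeR adjusted p = 0.199) and -0.34 for Fth1. The ratio of heavy to light chain counts was then 4.16 to 4.88 in CTR and 2.21 to 3.31 in CAC, a log2 difference of -0.61. Ftl1 also overlaps 2 further annotated genes, Gm10252 and Gm22133, of which Gm10252 lies on the other strand.

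**Figure D2:**
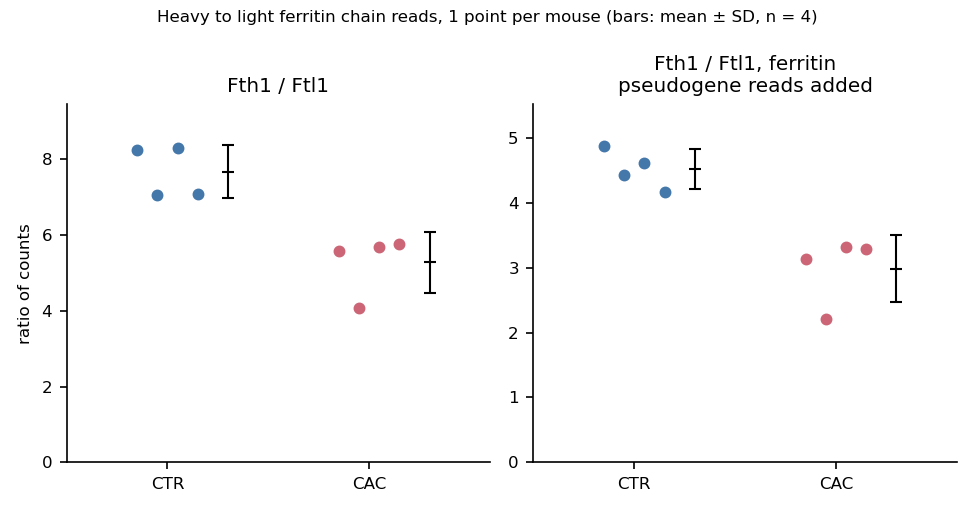
Ratio of Fth1 to Ftl1 counts in each of 4 CTR and 4 CAC mice, from the rows of the 2 genes (left) and with the ferritin pseudogene rows added (right), with bars for mean ± SD and both axes from 0. The CTR mice lie above every CAC mouse in both panels, at 7.06 to 8.31 against 4.08 to 5.77 on the left.

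The receptor and the heavy chain, which carry their IREs at opposite ends of the message, both had lower means in CAC. For Tfrc to Fth1 the log2 ratio averaged -6.12 ± 0.22 among CTR and -6.17 ± 0.20 among CAC mice (SD, n = 4 each). The difference of -0.05 was smaller than either SD (p = 0.543, exact two-sided permutation test), and its sign changed when CTR replicate 3 or CAC replicate 3 was left out.

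For export and heme breakdown the depth set the limit. Slc40a1 (ENSMUSG00000025993.11, chr1:45908068-45926523, minus strand) encodes ferroportin, the known iron exporter of the cell, which is abundant in macrophages that recycle erythrocyte iron. It read 4.68, 1.86, 5.39 and 4.85 CPM in CTR and 3.78, 4.25, 3.22 and 5.93 CPM in CAC, from 7 to 22 counts per library. The groups overlapped throughout, with means of 4.2 ± 1.58 and 4.3 ± 1.17 CPM (SD, n = 4 each) and a log2 fold change of 0.07 (SE 0.35, edgeR adjusted p = 0.962). The sign changed without CTR replicate 2 or CAC replicate 4. No difference was detectable at this depth.

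Hmox1 (ENSMUSG00000005413.9, chr8:75093621-75100589, plus strand) encodes heme oxygenase 1, the inducible enzyme that opens the heme ring and frees its iron. Its counts were 12, 2, 5 and 12 for the CTR mice, against 11, 4, 7 and 6 for the CAC mice. This was 4.32, 0.533, 2.07 and 2.65 CPM in CTR and 5.95, 2.13, 2.05 and 2.09 CPM in CAC. The means were 2.39 ± 1.56 and 3.05 ± 1.93 CPM (SD, n = 4 each; exact two-sided permutation test, p = 0.657). CAC replicate 1 set the CAC mean, which was 2.09 ± 0.038 CPM without it and then below the CTR mean. Of 4 other targets of the same transcription factors, Nrf2 and Bach1, 3 were measured at greater depth. Gclm, a subunit of the enzyme that starts glutathione synthesis, had a log2 difference of 0.08 (edgeR adjusted p = 0.898). Txnrd1, thioredoxin reductase, and Srxn1, sulfiredoxin, both stood at 0.06 (edgeR adjusted p = 0.906 and 0.890). Nqo1, a quinone reductase, had 1 to 4 counts per library and was not tested. Its CPM was 0.266 to 0.441 in CTR and 0.586 to 1.39 in CAC, without overlap. The counts were 1, 1, 1 and 2 in CTR and 2, 2, 2 and 4 in CAC, so under 3 in all libraries but CAC replicate 4. As counts, before scaling, the groups met at 2. Of all genes tested 3.64% were higher without overlap in CPM, but these passed the filter and Nqo1 did not.

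Both regulators had lower means in CAC. Aco1 (ENSMUSG00000028405.10, chr4:40143081-40198338, plus strand) encodes IRP1, which is the cytosolic aconitase when it holds an iron-sulfur cluster and binds IREs when it does not. It read 18.4, 23.7, 11.2 and 17.9 CPM in CTR and 8.11, 9.57, 14.7 and 9.06 CPM in CAC. CAC replicates 1, 2 and 4 were below every CTR mouse, while CAC replicate 3 was above CTR replicate 3. The means were 17.8 ± 5.12 and 10.3 ± 2.93 CPM (SD, n = 4 each), and the log2 fold change of -0.76 (SE 0.23) was the one farthest from 0 among the 9 tested genes (edgeR adjusted p = 0.126). Without CTR replicate 3 it was -0.90 with an adjusted p of 0.0417, and 1.33% of all genes passed. With no filter on low counts, which raised the number of genes tested to 23730, both Aco1 (-0.78, adjusted p = 0.0145) and Fth1 (-0.36, adjusted p = 0.0114) passed in edgeR, where 1.48% of all genes did.

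Ireb2 (ENSMUSG00000032293.9, chr9:54863789-54912530, plus strand) encodes IRP2, which holds no such cluster and is degraded when iron is plentiful. It read 9.72, 9.32, 12.9 and 8.6 CPM in CTR and 7.57, 7.98, 7.91 and 8.02 CPM in CAC, with every CAC mouse below every CTR mouse. The means were 10.1 ± 1.88 and 7.87 ± 0.205 CPM (SD, n = 4 each), with a log2 fold change of -0.33 (SE 0.22, edgeR adjusted p = 0.561). The counts were 14 to 39 per library, for which counting alone gave an SD of 1.52 to 2.06 CPM in CAC. The CAC values thus lay closer together than counting error would place them on average, and the gap between the nearest mice of the 2 groups, 8.02 and 8.6 CPM, was smaller than that error. Aco1 to Ireb2 log2 ratios averaged 0.77 ± 0.67 among CTR and 0.35 ± 0.36 among CAC mice (SD, n = 4 each), a difference of -0.42 (exact two-sided permutation test, p = 0.314, 0.471 after adjustment over the 3 ratios). It was -0.74 without CTR replicate 3 and -0.23 without CTR replicate 2.

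**Figure D3:**
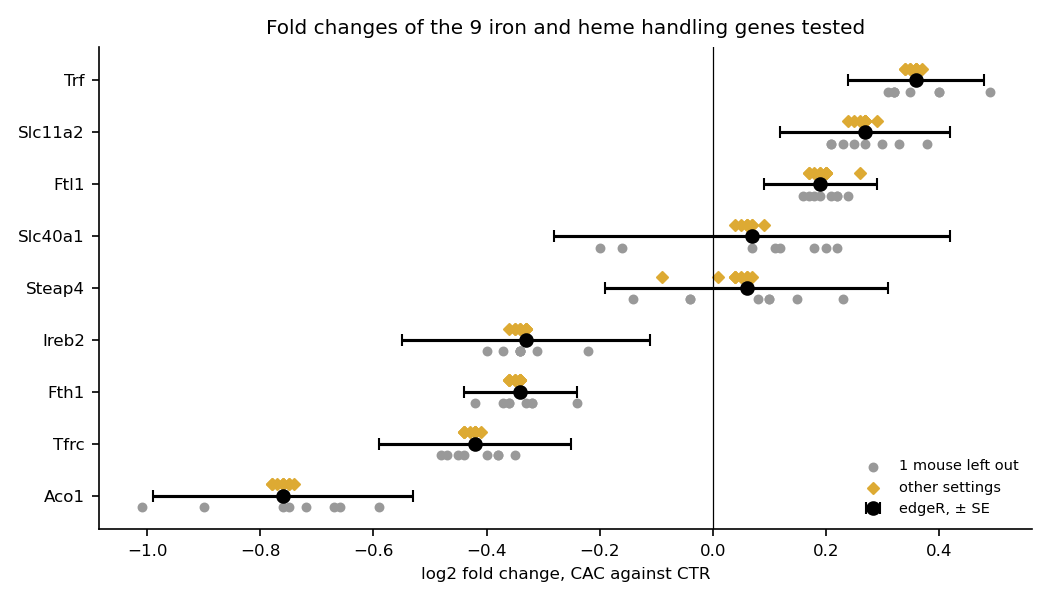
Log2 fold changes of CAC against CTR (horizontal axis) for the 9 genes tested, with edgeR estimates ± SE in black, values with 1 mouse left out in grey and values under other settings in yellow. Aco1, Tfrc, Fth1 and Ireb2 stay below 0 and Trf, Slc11a2 and Ftl1 above 0 in all of these, whereas Slc40a1 and Steap4 fall on both sides.

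The other genes of the pathway were read from a list of 88 genes in 7 roles, 70 of which passed the filter on low counts. At an adjusted p under 0.05, 0 were higher and 1 was lower in CAC, where 0.739% and 0.192% of all genes tested were. At an unadjusted p under 0.05, 6 were higher and 9 lower, where 7.01% and 5.93% of all genes tested were, and the median log2 fold change was -0.05. The gene that fell was Hscb, the co-chaperone that hands newly built iron-sulfur clusters to their acceptors in mitochondria. It read 6.84, 8.52, 6.64 and 5.73 CPM in CTR and 1.08, 3.72, 2.64 and 2.79 CPM in CAC, and the groups did not overlap. The means were 6.93 ± 1.16 and 2.56 ± 1.09 CPM (SD, n = 4 each), with a log2 fold change of -1.40 (SE 0.32, edgeR adjusted p = 0.0365), from 2 to 32 counts per library. The call was lost in DESeq2 (adjusted p = 0.0623) and in limma-trend (adjusted p = 0.0649). It was also lost when any of 5 of the 8 libraries was left out, with an edgeR adjusted p of up to 0.136. These were CTR replicates 1 and 2 and CAC replicates 1, 3 and 4. The log2 fold change was still -1.42 in DESeq2 and -1.40 in limma-trend, and -1.56 to -1.21 with 1 mouse left out.

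Of the 28 tested genes for mitochondrial iron and iron-sulfur clusters, 9 had higher and 19 lower means in CAC. At an unadjusted p under 0.05 there were 1 higher and 6 lower, where 7.01% and 5.93% of all genes tested were. Hscb was 1 of the lower ones. Others, named after their values were seen, were Iscu, the scaffold on which clusters are built (log2 fold change -0.59), Ciao1 of the cytosolic assembly machinery (-0.59) and Bola3, a late assembly factor (-0.29). None of these 3 passed the adjusted test (edgeR adjusted p = 0.215, 0.324 and 0.225 in this order).

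Slc25a37, mitoferrin 1, carries iron into mitochondria and is best known from erythroid cells. It read 18, 15.4, 33.6 and 18.3 CPM in CTR and 93.0, 39.9, 60.9 and 48.8 CPM in CAC, with every CAC mouse above every CTR mouse. The means of 21.3 ± 8.28 and 60.7 ± 23.2 CPM (SD, n = 4 each) gave a log2 fold change of 1.54 (SE 0.33), which did not pass in edgeR (adjusted p = 0.101) but did in DESeq2 (adjusted p = 1.96e-06) and limma-trend (adjusted p = 0.00938). Its row held fractions of reads in 3 libraries and overlaps 4 further annotated genes. In edgeR it passed with no filter on low counts (adjusted p = 6.21e-06) and without CTR replicate 3 (adjusted p = 0.00912) or CAC replicate 1 (adjusted p = 0.023).

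Of the 14 tested genes of heme synthesis 6 had higher and 8 lower means, and 0 passed the adjusted test. Named for comparison outside the rule for the wider list, Alas2, the erythroid form of the first enzyme, read 10.4, 10.1, 25.7 and 5.73 CPM in CTR and 61.6, 18.1, 42.2 and 32.4 CPM in CAC (log2 fold change 1.66, SE 0.55, edgeR adjusted p = 0.280). Alas1, the form used by other cells and likewise outside the rule, went the other way, with means of 53.1 ± 14.5 and 41.7 ± 8.79 CPM (log2 fold change -0.37, edgeR adjusted p = 0.438, SD, n = 4 each). Fech, ferrochelatase, which puts iron into the ring in the last step, read 51.8, 57.3, 44.4 and 51.6 CPM in CTR and 91.9, 58.5, 67.7 and 61.4 CPM in CAC. Its groups did not overlap (log2 fold change 0.43, SE 0.14, edgeR adjusted p = 0.149). Tmem14c, which moves a heme precursor through the mitochondrial inner membrane, was lower in every CAC mouse than in every CTR mouse, with means of 437 ± 37.9 and 521 ± 26.5 CPM (log2 fold change -0.26, SE 0.09, edgeR adjusted p = 0.229).

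Alas2 is also 1 of the 7 erythrocyte markers, so its level and their sum are not separate measurements. The summed erythrocyte markers were 9983, 9552, 19269 and 6179 CPM in CTR replicates 1 to 4 and 44327, 14637, 37908 and 23679 CPM in CAC replicates 1 to 4. CTR replicate 3, with the highest sum in CTR, also had the highest Alas2 and Slc25a37 of that group and the lowest Fech. CAC replicate 1 was the highest mouse in all 4 measures, and CAC replicate 2 was the lowest of its group in all 4. The part of erythroid RNA in the values of Slc25a37, Alas2 and Fech was not tested.

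**Figure D4:**
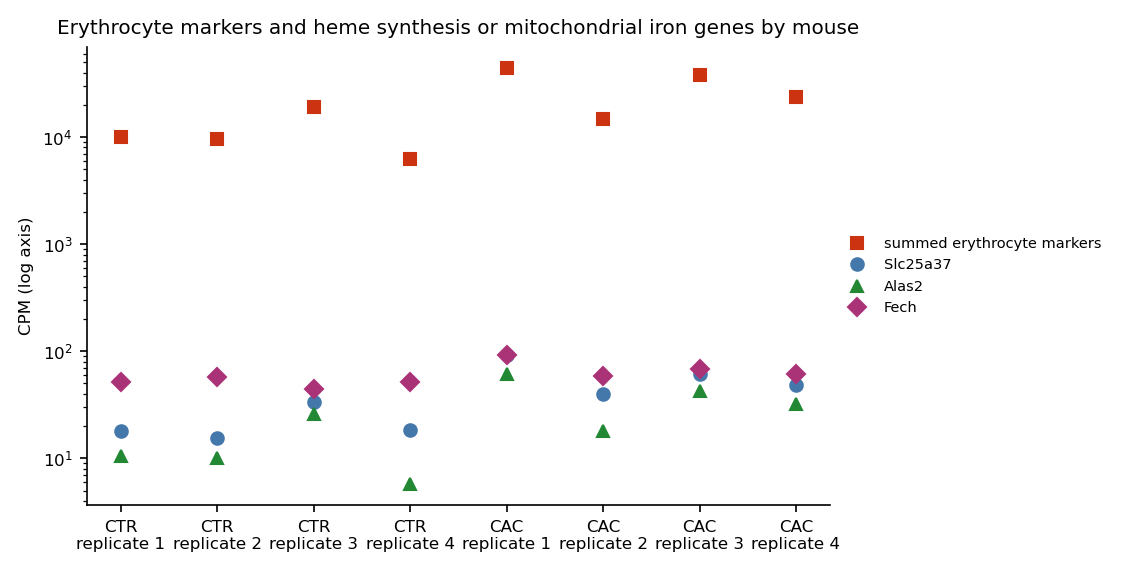
CPM on a log axis for the sum of 7 erythrocyte markers and for Slc25a37, Alas2 and Fech in each of 4 CTR and 4 CAC mice, 1 point per mouse and measure. Within CAC, replicate 1 is highest and replicate 2 lowest in all 4 measures, from 93.0 to 39.9 for Slc25a37.

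In the remaining roles 0 genes passed the adjusted test. Of 3 tested storage genes and chaperones, Ncoa4, the receptor that delivers ferritin to lysosomes for iron release, read 18.7, 16.2, 19.9 and 19.0 CPM in CTR and 10.8, 10.1, 13.8 and 15.7 CPM in CAC. Like Fth1, it was lower in every CAC mouse than in every CTR mouse, with a log2 fold change of -0.51 (SE 0.18, edgeR adjusted p = 0.215). Pcbp2, an iron chaperone, stood at 0.07 on that scale (edgeR adjusted p = 0.865).

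Of 4 tested export genes, Cp, ceruloplasmin, the plasma ferroxidase that helps load exported iron onto transferrin, read 36.3, 34.9, 34.0 and 37.5 CPM in CTR and 35.7, 54.8, 56.6 and 54.0 CPM in CAC. Its pattern was that of Trf, with CAC replicate 1 inside the CTR range and the other 3 CAC mice above it. The log2 fold change was 0.50 (SE 0.14, edgeR adjusted p = 0.0881), and without CAC replicate 1 it was 0.63 with an adjusted p of 0.00947. With no filter on low counts it was 0.48 with an adjusted p of 0.0402. Slc48a1, a heme transporter listed in this role although it does not carry heme out of the cell, stood at -0.06 (edgeR adjusted p = 0.903).

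Of 7 tested genes for scavenging and breakdown, Hp, haptoglobin, which binds free hemoglobin in plasma, had means of 203 ± 23.2 and 276 ± 47.9 CPM (SD, n = 4 each) and a log2 fold change of 0.44 (SE 0.12, edgeR adjusted p = 0.0844). It passed with no filter on low counts (adjusted p = 0.0139) and without CTR replicate 3 (adjusted p = 0.0446) or CAC replicate 3 (adjusted p = 0.0474). Cd163, the macrophage receptor for haptoglobin and hemoglobin and also 1 of the 11 macrophage markers, had a log2 fold change of 0.71 (SE 0.35, edgeR adjusted p = 0.413). The value was 0.17 when CAC replicate 3 was left out.

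Of 5 tested uptake genes 1 had a higher and 4 a lower mean, among them Mfsd12, a cysteine transporter of lysosomes and melanosomes that is not itself an iron carrier (log2 fold change -0.33, edgeR adjusted p = 0.427), and Slc22a17, a receptor for lipocalin 2 (-0.55, edgeR adjusted p = 0.500). Both values moved when single mice were left out: Mfsd12 stood at -0.19 without CTR replicate 2, and Slc22a17 at -0.98 without CAC replicate 4 and at -0.35 without CAC replicate 1. Lcn2, which encodes lipocalin 2, a protein that binds iron-carrying siderophores and is abundant in neutrophils, was under the filter. Named after its values were seen, it had 1, 0, 0 and 0.5 counts in CTR and 10, 4, 13 and 5 in CAC, so it was at or under 3 counts in every CTR library and above them in every CAC library. The summed neutrophil markers given above also separated the groups. The part of neutrophils in the Lcn2 counts was not tested.

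Of 9 tested regulators, Epas1, the hypoxia-inducible factor HIF-2α, which drives genes of iron uptake in other tissues, had means of 155 ± 14.8 and 128 ± 14.1 CPM (SD, n = 4 each) and a log2 fold change of -0.27 (SE 0.11, edgeR adjusted p = 0.277). Bmpr1a, a receptor of the signal that induces hepcidin in liver, had a log2 fold change of 0.50 (SE 0.25, edgeR adjusted p = 0.402). Hamp and Hamp2, the hepcidin genes, also named outside the rule, had 0 counts in all 8 libraries, which allows up to 0.661 to 1.62 CPM per library, the worth of 3 counts.

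**Figure D5:**
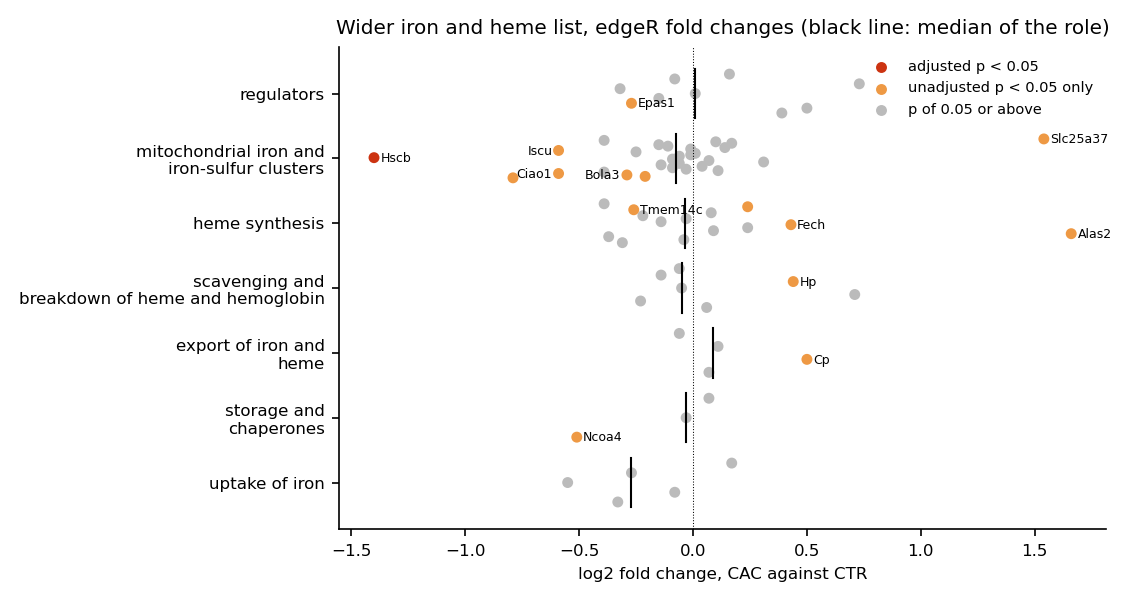
Log2 fold changes of CAC against CTR (horizontal axis) for the 70 tested genes of the wider iron and heme list by role, coloured by edgeR p, with the median of each role as a black line. Hscb at -1.40 is the only one past the adjusted threshold in edgeR, and the medians of the 7 roles lie between -0.27 and 0.09.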

How the data were processed

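Single-end digital mRNA libraries were made from BAT, 1 for each of 4 CTR and 4 CAC mice. The authors checked reads with FastQC (version 0.11.9), aligned them to mm10 with HISAT2 (version 2.2.1) and counted genes with featureCounts, sharing reads that map to several places. The strand setting is not given in the sources used here. The deposited table of expected counts holds fractions of reads, which were rounded here. The deposited normalized table, a signal that the authors scaled with DESeq2, was used for limma-trend only, as log2(value + 1).

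Genes were tested with edgeR (version 4.0.16), robust quasi-likelihood, TMM factors and filterByExpr, with Benjamini-Hochberg adjustment over 9876 genes and a threshold of 0.05. DESeq2 (version 1.42.0) and limma (version 3.58.1) were alternatives, with other scalings, filters and left-out libraries. On simulated counts with 9625 genes tested, edgeR called 77 of 95 genes changed by 1 log2 unit, 88 of 92 changed by 2 and 13 of 9438 unchanged. The 9 members tested had log2 fold changes of -0.76 to 0.36. Changes of that size were not simulated, so these shares do not give the power for them. Log2 ratios of 2 genes used counts plus 0.5 and an exact permutation test over mice. Counting SDs are square roots of counts and cover counting error only.

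Gene positions and IRE searches used GENCODE M21 on GRCm38, and 91.4% of the gene IDs of the files matched it once the version number was dropped. Named genes were all 10 genes above and, in each role of the wider list, every gene passing the adjusted test and the 2 with the smallest p. Others of that list that are named, Alas1, Alas2, Hamp, Hamp2, Iscu, Ciao1, Bola3 and Lcn2, were chosen after their values were seen. Genes, lists and roles were chosen with earlier results of these data known. Some genes of the wider list are counted but not reported by name here.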

Additional observations from a re-analysis of the deposited data

Results flagged for a closer look

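In a group of 4 mice, a value was listed here when its gap to the nearest other mouse, as a share of the range of the group, was above the 95% critical value of Dixon. The values examined were those of the 10 genes, the 3 ratios, the 9 marker sums and 27 other genes named in the text (single cell type markers not among them unless also on the iron and heme list), leaving out groups in which all mice had the same value. Of 94 groups 12 met this. Independent, normally distributed groups would give about 4.7. The groups here share mice and genes and include low counts, so no comparison with chance is drawn. Among the 10 genes these were Trf in CAC replicate 1, at 176 CPM against 260 to 263 in the other CAC mice, and Hmox1 in CAC replicate 1, at 5.95 CPM against 2.05 to 2.13. The log2 ratio of Fth1 to Ftl1 in CAC replicate 2 was 2.03, against 2.48 to 2.53 in the other CAC mice.

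Among the other genes named, Cp in CAC replicate 1 was at 35.7 CPM against 54 to 56.6 in the other CAC mice, and Slc25a37 in CTR replicate 3 at 33.6 CPM against 15.4 to 18.3 in the other CTR mice. Lcn2 in CTR replicate 1 was at 0.36 CPM, from 1 count, against 0 in the other CTR mice after rounding. Gclm in CAC replicate 3 was at 28.7 CPM against 19.5 to 20.9, and Txnrd1 in CAC replicate 4 at 30.3 CPM against 26.5 to 27.1.

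Among summed markers, brown adipocyte markers in CTR replicate 4 were at 17653 CPM against 15971 to 16151 in the other CTR mice. Macrophage markers in CTR replicate 3 were at 209 CPM against 231 to 234. Schwann cell markers in CAC replicate 1 were at 352 CPM against 190 to 206, and hepatocyte markers in CAC replicate 3 at 17.3 CPM against 0.541 to 2.66.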

How the results depend on the processing

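Among the 10 genes, no adjusted call was made under 9 of the alternatives that keep all mice. With no filter on low counts 2 genes were called (Aco1 and Fth1), at an unadjusted p 4, and with 1 mouse left out 0 to 1 (Aco1 without CTR replicate 3, Trf without CAC replicate 1). The wider list gave 6 calls with no filter, 0 with at least 10 counts in every library, 15 at an unadjusted p and, with 1 mouse left out, 0 (CTR replicate 1, CTR replicate 2 or CAC replicate 4) to 4 (CTR replicate 3), with 2 without CAC replicate 1. With at least 10 counts in every library, Hscb was not among the genes tested. In DESeq2 and limma-trend the 1 call of the wider list was Slc25a37 and not Hscb. Over all genes there were 351 calls with no filter, 1278 at an unadjusted p, and 42 (without CTR replicate 1) to 135 (without CTR replicate 3) with 1 mouse left out, with 60 without CAC replicate 3, against 92. The log2 fold change of Steap4 was -0.09 in limma-trend and -0.14 to 0.23 with 1 mouse left out, that of Slc40a1 -0.20 to 0.22, and the Tfrc to Fth1 log2 ratio differed by -0.13 to 0.01. The alternatives for wider-list genes and Hmox1 were chosen after seeing the data: with 1 mouse left out, the log2 fold change was -0.02 to 0.13 for Pcbp2 and -0.20 to 0.01 for Slc48a1, and the mean difference of Hmox1 was -0.30 to 1.30 CPM. The causes were not tested.

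The labels do not say that mice of equal replicate number are paired. The deviations of same-numbered mice correlated at 0.0309, -0.0231, 0.0281 and 0.0355 over 9876 genes, and not every mouse correlated best with its own number. These values cannot show whether a pairing exists. With the replicate number as a block, 0 of the 10 genes, 2 of the wider list (Slc25a37 at an adjusted p of 0.00195 among them) and 140 of all genes were called. For the Fth1 to Ftl1 ratio the block left the difference at -0.55, with an exact sign-flip p of 0.125, the smallest that 4 pairs can give. Hmox1, with 2 to 12 counts per library, and Slc40a1, with 7 to 22, are limited by depth, as 3 counts are worth 0.661 to 1.62 CPM.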
